A study of Mus musculus with 24 samples.

Results

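Transcripts of 7 genes of the interleukin 1 family were followed in mouse macrophages that had been cultured from bone marrow (BMDMs). The 7 genes are the ligand genes Il1a, Il1b and Il18, the inhibitor genes Il1rn and Il18bp, and the receptor genes Il1rap and Il1r2. They were taken by symbol from a table of 24273 genes, where each had 1 row. Of the 7 genes, 6 reached the level needed for a test and Il1r2 did not.

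The study compared 2 genotypes across a time course of lipopolysaccharide (LPS), a bacterial product sensed by TLR4, to find out what FOS controls in macrophages. FOS is a subunit of the transcription factor AP-1. Libraries labelled FosKO came from C57BL/6 cells carrying the LysM-Cre driver, a Cre gene at the myeloid lysozyme locus Lyz2, and floxed Fos on both chromosomes (Fos fl/fl). Libraries labelled LysM-Cre were the controls and shared the driver. The design text gives them no floxed allele, whereas the text of the study gives them 1 (Fos fl/+). Cells were unstimulated (0 h) or received LPS at 100 ng/ml for 0.5, 1 or 2 h, with 3 libraries in each of the 8 groups. The study calls the libraries biological replicates. The age of the mice, and whether each replicate was a separate mouse or culture, are not given in the sources used here, so p-values measure the spread between these libraries.

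Interleukin 1 alpha and interleukin 1 beta bind the same receptor, whose signalling needs the accessory chain encoded by Il1rap, and macrophages induce both after they sense bacteria. The receptor antagonist encoded by Il1rn occupies that receptor without signalling, and the type 2 receptor encoded by Il1r2 is a decoy. Interleukin 18, a relative made mostly as a stored precursor, is neutralised by the binding protein encoded by Il18bp. Interleukin 1 beta and interleukin 18 are cut by caspase 1 before they act, so transcript levels are not levels of active cytokine.

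All levels are log2 values as deposited by the authors after normalisation. A step of 1 means 2-fold. The study gives a typical read yield, but how many reads each library had is unknown. The 18S ribosomal RNA gene Rn18s-rs5 divided the libraries into 19 between 18.57 and 19.39 and 5 between 16.65 and 17.00, all 5 from the 0.5 and 1 h groups (open symbols in the plot of levels), and the members' differences between genotypes at those times are also given within each set. At 0.5 h each genotype had 2 high libraries and 1 low one, and at 1 h FosKO had 2 and 1 and LysM-Cre 1 and 2. A fit of the high set alone thus rests at 1 h on 1 LysM-Cre library, which is assumed to vary like the other groups. The level of Fos does not check the labels, since it was not lower in FosKO at 0, 1 and 2 h. Its mean was 12.60 to 12.80 in libraries labelled FosKO at all 4 times, while in LysM-Cre it was 11.11 before LPS, 13.52 after 0.5 h, 11.15 after 1 h and 9.52 after 2 h. The change of Fos at 0.5 h was 0.15 in FosKO and 2.41 in LysM-Cre, a difference in response of -2.26 (limma adjusted p 1.38e-09). The study also reports higher Ifnb1 and lower Il10 transcripts in FosKO after LPS. For Lyz2, the locus of the driver, the FosKO minus LysM-Cre difference was 5.17, 4.89, 4.98 and 5.06 at 0, 0.5, 1 and 2 h. Although both genotypes carry the driver, the transcript of its locus was thus not matched between them. The part of Lyz2 in the differences below was not tested. All 7 macrophage markers examined (Adgre1, Csf1r, Cd14, Itgam, Fcgr1, Mertk and Cd68) lay between 9.07 and 15.38 in every library. In bulk RNA, fewer cells of a type and less RNA per cell cannot be told apart.

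Because FOS acts through AP-1 sites, the bases just before the transcription start are shown for the 2 ligand genes that LPS induced most and for the 2 inhibitor genes. Each sequence is 150 bases from RefSeq (build GRCm38.p6) and ends next to the start site. Capitals mark matches to AP-1 (TGANTCA), NF-kB (GGG and CC separated by any 5 bases) or C/EBP (TTNNGNAA) letters, where N is any base and both strands were read. A match that runs past the printed end stays in lower case, as do the NF-kB letters that begin at -4 in Il1rn.
Il1a (chr2:129309973-129310122, minus strand): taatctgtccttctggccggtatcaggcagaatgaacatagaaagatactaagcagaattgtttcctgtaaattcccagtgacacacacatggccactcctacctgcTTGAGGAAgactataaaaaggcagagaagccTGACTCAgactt
Il1b (chr2:129371140-129371289, minus strand): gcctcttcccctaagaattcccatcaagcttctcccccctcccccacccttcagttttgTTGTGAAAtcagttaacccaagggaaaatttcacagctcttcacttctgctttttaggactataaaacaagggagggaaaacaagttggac
Il1rn (chr2:24336710-24336859, plus strand): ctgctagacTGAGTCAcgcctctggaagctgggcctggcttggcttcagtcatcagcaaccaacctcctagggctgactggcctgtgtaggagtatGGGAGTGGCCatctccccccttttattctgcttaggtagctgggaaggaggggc
Il18bp (chr7:102018233-102018382, minus strand): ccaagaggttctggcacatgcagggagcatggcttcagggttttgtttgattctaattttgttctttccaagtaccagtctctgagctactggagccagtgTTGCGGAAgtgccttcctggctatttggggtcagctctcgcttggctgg
The AP-1 letters were found at -12 in Il1a (first base of the match, counted from the start site) and at -141 in Il1rn. They were found in no other window of the 7 genes, which had 9 windows of 300 bases (250 before and 50 from the start), including 3 for Il1rn. Of all 32851 such windows in the reference, 7.81% held the AP-1 letters, 50.8% the loose NF-kB letters and 40.7% the C/EBP letters. The C/EBP letters were present at -43 in Il1a, -91 in Il1b and -49 in Il18bp, and also in the other 2 Il1rn windows, which start further downstream. The NF-kB letters were present in all 3 Il1rn windows and, with 6 matches of which some overlap, in the Il1rap window. The windows of Il18 and Il1r2 held none of the 3. A match is a description of letters, not a bound site.

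LPS raised the transcripts of both interleukin 1 ligands within 0.5 h, and by 1 h they had gained most of their increase. Il1a (ENSMUSG00000027399, chr2:129299610-129309972, minus strand) and Il1b (ENSMUSG00000027398, chr2:129364570-129371139, minus strand) have start sites that lie 61167 bases apart. The other members moved later and less. Among the 6 tested members, limma called 2 higher at 0.5 h, 3 at 1 h and 6 at 2 h in LysM-Cre, and none lower. In libraries labelled FosKO it called 2, 4 and 6 higher and none lower. A gene was called at a Benjamini-Hochberg adjusted p under 0.05 over the 13901 genes tested.

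The share of all tested genes called gives the background for these counts. In LysM-Cre it was 7.24% at 0.5 h (5.09% higher), 35.8% at 1 h (19.2% higher) and 60.8% at 2 h (30.6% higher). In FosKO it was 5.92% (4.45% higher), 32.6% (17.6% higher) and 62.1% (32.6% higher). The median change of the 6 members at 2 h was 0.66 in LysM-Cre and 0.85 in FosKO, against -0.016 and 0.0047 over all genes tested.

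Il1a was 8.02, 7.90 and 8.08 in the 3 LysM-Cre libraries without LPS, 9.71, 9.92 and 9.96 after 0.5 h, 12.60, 12.55 and 12.64 after 1 h, and 12.58, 12.58 and 12.67 after 2 h. In FosKO it was 8.19, 8.24 and 8.27 without LPS. After 0.5 h it was 10.16, 10.24 and 10.30, after 1 h 12.73, 12.90 and 12.88, and after 2 h 13.33, 13.32 and 13.54. The control libraries thus reached a level at 1 h that the 2 h libraries overlapped, whereas every FosKO library at 2 h lay above every FosKO library at 1 h. The change from 0 h was 1.87, 4.60 and 4.61 in LysM-Cre (SE 0.066 each) and 2.00, 4.60 and 5.16 in FosKO, and limma called each (adjusted p no higher than 8.62e-15). This is a 24.4-fold rise at 2 h in LysM-Cre and a 35.8-fold rise in FosKO.

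Il1b was 9.99, 10.00 and 9.99 in LysM-Cre without LPS, 12.43, 12.82 and 12.73 after 0.5 h, 14.77, 14.89 and 14.97 after 1 h, and 14.85, 14.96 and 15.00 after 2 h. In FosKO it was 10.14, 10.19 and 10.26 without LPS. After 0.5 h it was 12.38, 12.30 and 12.48, after 1 h 14.71, 14.76 and 14.86, and after 2 h 15.30, 15.27 and 15.49. The FosKO libraries lay above the controls at 0 and 2 h, and overlapped them at 0.5 and 1 h. The change from 0 h was 2.67, 4.88 and 4.94 in LysM-Cre (SE 0.080 each) and 2.18, 4.58 and 5.15 in FosKO, and limma called each (adjusted p no higher than 2.199e-14).

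Il18 (ENSMUSG00000039217, chr9:50554827-50581840, plus strand) did not change detectably before 2 h. Its changes at 0.5 and 1 h were -0.072 and 0.020 in LysM-Cre and 0.14 and 0.015 in FosKO (limma adjusted p at least 0.434). At 2 h it rose by 0.68 in LysM-Cre and 0.66 in FosKO (SE 0.089, adjusted p at most 1.55e-06).

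The inhibitors rose less than the interleukin 1 ligands. Il1rn (ENSMUSG00000026981, chr2:24336853-24351494, plus strand) rose at 1 h by 0.41 in LysM-Cre and 0.55 in FosKO, and at 2 h by 0.65 and 1.04 (SE 0.095 each, limma adjusted p at most 0.00172). At 0.5 h its change was 0.075 in LysM-Cre (adjusted p 0.783) and 0.21 in FosKO (adjusted p 0.218). The latter was called without FosKO replicate 3 at 0 h (0.33, adjusted p 0.0375) and with a replicate block specific to each genotype (adjusted p 0.00913), but not with a block shared by the genotypes (adjusted p 0.111). Under quantile normalisation its changes in LysM-Cre were 0.24 at 1 h and 0.37 at 2 h, and that in FosKO at 2 h was 0.66, all still called. Il18bp (ENSMUSG00000070427, chr7:102014885-102018690, minus strand) rose at 2 h, by 0.44 in LysM-Cre and 0.55 in FosKO (SE 0.15, adjusted p 0.0131 and 0.00267). The former call was lost without replicate 3 of LysM-Cre at 2 h (0.38, adjusted p 0.0551).

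Il1rap (ENSMUSG00000022514, chr16:26581704-26730117, plus strand) rose at 2 h by 0.43 in LysM-Cre and 0.59 in FosKO (SE 0.044, limma adjusted p at most 3.19e-08). Its smaller change at 1 h in FosKO, 0.14, was called (adjusted p 0.0205), but not without replicate 1 or 2 at 0 h or replicate 1 at 1 h (0.12, 0.11 and 0.12), nor in the high 18S libraries alone (0.12, adjusted p 0.110) or in a fit of those groups only (adjusted p 0.105). In the high 18S libraries alone, with 1 LysM-Cre library at 1 h, the other called changes of members at 0.5 and 1 h stayed called, at 1.82 and 4.60 for Il1a and 2.63 and 4.77 for Il1b in LysM-Cre, 2.03 and 4.65 for Il1a and 2.19 and 4.61 for Il1b in FosKO, and 0.40 and 0.62 for Il1rn at 1 h in LysM-Cre and FosKO (limma adjusted p at most 0.0432). No library at 0 h had low 18S, so changes within that set cannot be had. The decoy receptor gene Il1r2 (ENSMUSG00000026073, chr1:40074079-40125231, plus strand) lay between 1.74 and 2.25 in all 24 libraries, under the minimum for testing. When genes of any level were fitted, none of its 13 comparisons was called (lowest limma adjusted p 0.416, lowest unadjusted p 0.164), and its change at 2 h had a 95% interval from -0.15 to 0.44 in LysM-Cre and from -0.25 to 0.34 in FosKO. If the authors' normalisation pulls low genes towards their mean, as a regularised log does, any difference in Il1r2 is understated.

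**Figure D1:**
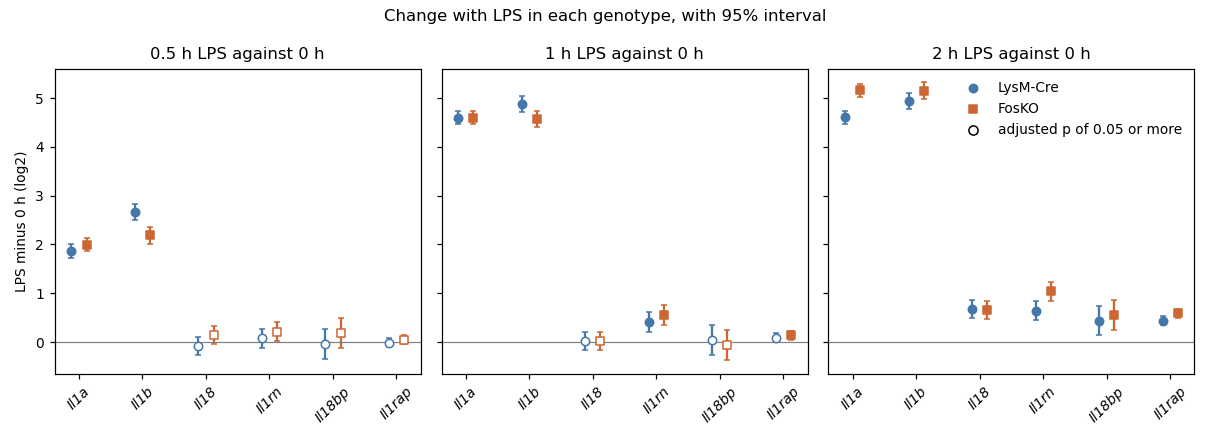
Change in log2 level from 0 h to 0.5, 1 and 2 h of LPS for the 6 tested genes, in LysM-Cre (circles) and FosKO (squares), with 95% intervals from limma. Open symbols did not pass the adjusted p of 0.05. Il1a and Il1b rose by 1.87 to 5.16, and the other genes by at most 1.04.

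Before LPS, 4 of the 6 tested members were higher in the libraries labelled FosKO, and none was lower. They were Il18bp, Il18, Il1rn and Il1a. At 0.5 h 5 were called, the same 4 higher and Il1b lower, and at 1 h the same 4 were called. At 2 h all 6 were higher, which includes Il1b and Il1rap. The share of all 13901 genes called was 35.4% before LPS (19.5% higher), 40.9% after 0.5 h, 33.9% after 1 h and 44.6% after 2 h (24.4% higher). Without overlap between groups, 5 of the 6 members lay higher in FosKO before LPS, 4 after 0.5 h, 4 after 1 h and 6 after 2 h. Of all genes tested, 24% (3338 genes), 25.9%, 23.7% and 28.9% did so. The median difference of the members was 0.30, 0.43, 0.37 and 0.68 at 0, 0.5, 1 and 2 h, while that of all genes tested stayed between -0.0032 and 0.004.

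**Figure D2:**
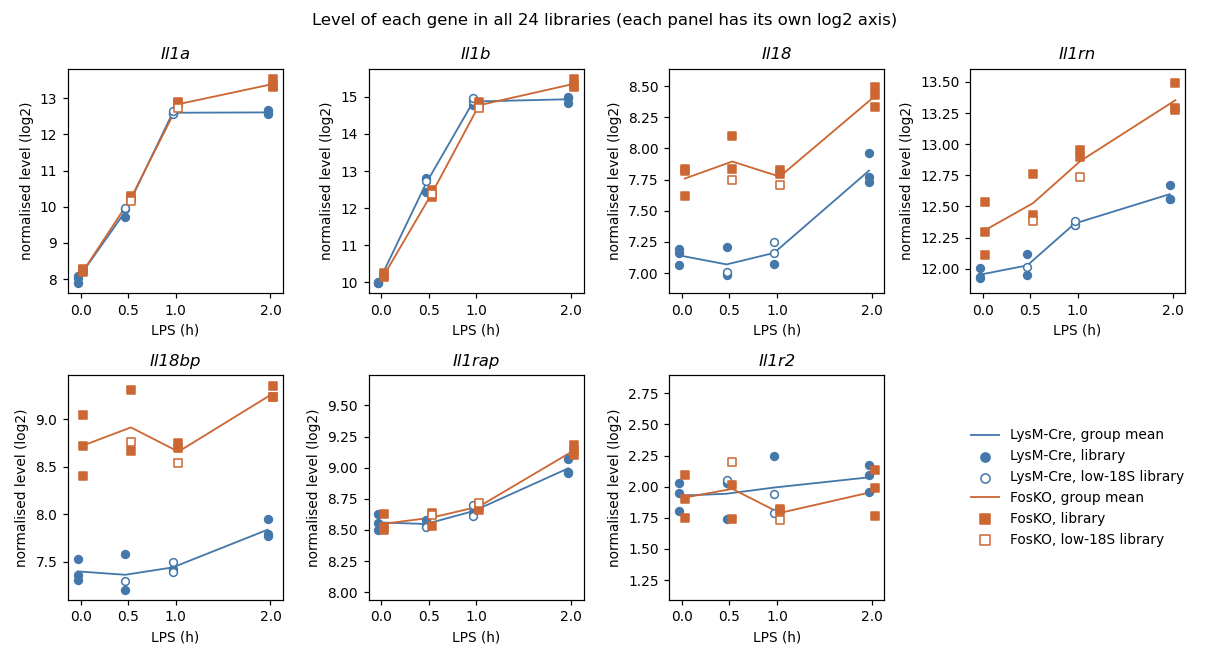
Normalised log2 level of each of the 7 genes in each of the 24 libraries against hours of LPS, with lines through the group means. Each panel has its own vertical axis. Open symbols are the 5 libraries with low 18S. Il1a, Il18, Il1rn and Il18bp lie higher in FosKO (squares) than in LysM-Cre (circles) at all 4 times without overlap, as do 12.8% of all genes tested.

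Il18bp, which encodes the protein that neutralises interleukin 18, differed most. The LysM-Cre libraries had 7.36, 7.52 and 7.31 without LPS, 7.58, 7.20 and 7.29 after 0.5 h, 7.43, 7.39 and 7.49 after 1 h, and 7.77, 7.79 and 7.95 after 2 h. In FosKO it was 8.40, 8.72 and 9.05 without LPS. After 0.5 h it was 8.76, 8.67 and 9.31, after 1 h 8.54, 8.69 and 8.74, and after 2 h 9.23, 9.23 and 9.35. The lowest FosKO library of the time course lay above the highest control library, and replicate 3 was the highest FosKO library at each time. The difference was 1.33, 1.55, 1.22 and 1.44 (SE 0.15, limma adjusted p at most 1.52e-06), or between 2.33- and 2.94-fold. The 0.5 h value was 1.60 among high 18S libraries and 1.47 among low ones, and the 1 h values were 1.29 and 1.09.

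Il18 itself was 7.20, 7.06 and 7.16 in LysM-Cre without LPS, 6.99, 7.21 and 7.01 after 0.5 h, 7.07, 7.25 and 7.16 after 1 h, and 7.77, 7.73 and 7.96 after 2 h. In FosKO it was 7.62, 7.82 and 7.83 without LPS. After 0.5 h it was 7.75, 7.84 and 8.10, after 1 h 7.70, 7.79 and 7.82, and after 2 h 8.33, 8.43 and 8.49. The groups did not overlap at any time, and 2 of the 3 unstimulated FosKO libraries lay within the range of controls after 2 h of LPS. The difference was 0.62, 0.83, 0.61 and 0.60 (SE 0.089, limma adjusted p at most 1.65e-05). The 0.5 h value was 0.87 among high 18S libraries and 0.74 among low ones, and the 1 h values were 0.74 and 0.50.

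Il1rn, which encodes the interleukin 1 receptor antagonist, was 12.004, 11.93 and 11.92 in LysM-Cre without LPS, 12.12, 11.95 and 12.01 after 0.5 h, 12.35, 12.35 and 12.38 after 1 h, and 12.56, 12.56 and 12.67 after 2 h. In FosKO it was 12.11, 12.29 and 12.54 without LPS, 12.38, 12.44 and 12.76 after 0.5 h, 12.74, 12.90 and 12.96 after 1 h, and 13.27, 13.29 and 13.49 after 2 h. Every FosKO library lay above every control of its time, and replicate 3 was again the highest. The difference was 0.36, 0.50, 0.50 and 0.75 (SE 0.095, limma adjusted p at most 0.0053). Before LPS the call depended on FosKO replicate 3 and was lost without it (0.25, adjusted p 0.0501). High and low 18S libraries gave 0.565 and 0.368 after 0.5 h of LPS and 0.58 and 0.37 after 1 h.

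Of the interleukin 1 ligands, Il1a was higher in FosKO by 0.23, 0.37, 0.24 and 0.79 at 0, 0.5, 1 and 2 h (SE 0.066, limma adjusted p at most 0.00866), and the groups did not overlap at any time. The call at 0 h was lost without replicate 2 of LysM-Cre (0.18, adjusted p 0.0585). High and low 18S libraries gave 0.45 and 0.20 after 0.5 h of LPS and 0.29 and 0.13 after 1 h. At 2 h the difference was a 1.725-fold higher level.

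Il1b did not follow Il1a. The FosKO minus LysM-Cre difference was 0.20 at 0 h, which missed the threshold (SE 0.080, limma adjusted p 0.0539) although the groups did not overlap, and passed it in a fit of those groups only (adjusted p 0.00576) and with a stricter filter (adjusted p 0.0497). It was -0.28 at 0.5 h (adjusted p 0.00866), -0.10 at 1 h (adjusted p 0.369) and 0.42 at 2 h (adjusted p 0.00024). The lower level at 0.5 h was uncertain, since the groups overlapped and the call was lost without replicate 2 of LysM-Cre (-0.20, adjusted p 0.0718), in the high 18S libraries alone (-0.24, adjusted p 0.0798) and in a fit of those groups only (adjusted p 0.0739). Within the low 18S set it was -0.36 at 0.5 h, and at 1 h the high and low sets gave 0.039 and -0.22. At 2 h the difference was 0.23 under quantile normalisation, still called.

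The accessory chain gene Il1rap differed little. Its difference was -0.011, 0.051 and 0.037 at 0, 0.5 and 1 h (SE 0.044, limma adjusted p at least 0.395). At 2 h it was 9.07, 8.96 and 8.96 in LysM-Cre and 9.14, 9.10 and 9.18 in FosKO, groups that did not overlap, with a difference of 0.14 (adjusted p 0.0118). That call was lost without FosKO replicate 3 (0.12) or without replicate 2 or 3 of LysM-Cre (0.13 and 0.12). High and low 18S libraries gave 0.027 and 0.099 after 0.5 h of LPS and 0.027 and 0.065 after 1 h.

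**Figure D3:**
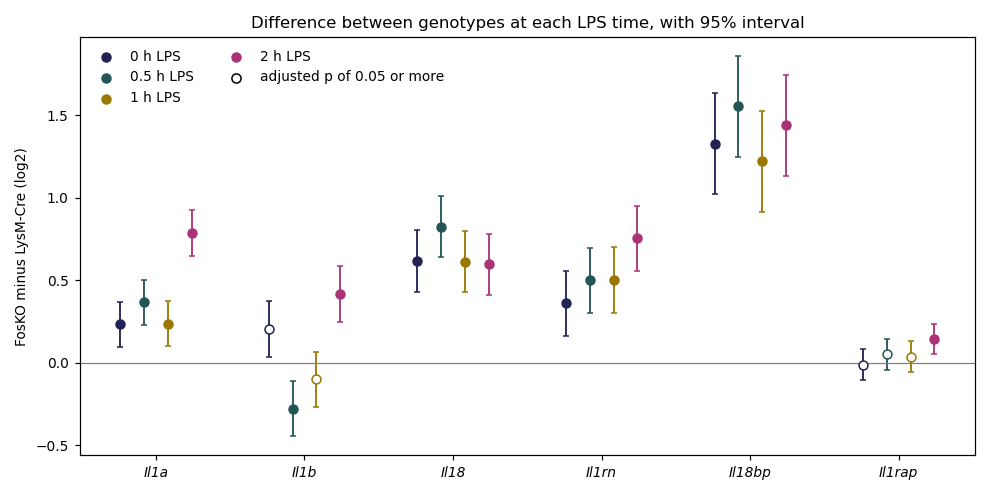
FosKO minus LysM-Cre difference in log2 level of the 6 tested genes at each of the 4 LPS times, with 95% intervals from limma. Open circles did not pass the adjusted p of 0.05. Il18bp differed by 1.22 to 1.55 at every time, whereas Il1b ran from -0.28 at 0.5 h to 0.42 at 2 h.

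Whether the genotypes responded differently to LPS was tested as the difference between their changes from 0 h. At 2 h, Il1a alone among the 6 members passed, with a response larger by 0.55 in FosKO (SE 0.093, limma adjusted p 0.000302). The share of all genes called at 2 h was 15.0% (7.27% higher). Quantile normalisation reduced the Il1a value to 0.36 (adjusted p 0.00586). Il1rn had a response larger by 0.39 at 2 h (SE 0.13), which missed the threshold (adjusted p 0.0532) and passed it without FosKO replicate 3 at 0 h (0.51, adjusted p 0.00833) and under 5 other settings, such as an 18S term (adjusted p 0.0398) or a replicate block (adjusted p 0.0182). For Il1b the value was 0.21 at 2 h (SE 0.11, adjusted p 0.241). For Il1rap it was 0.15 (SE 0.063, adjusted p 0.110), and it passed without FosKO replicate 3 at 0 h (0.19, adjusted p 0.0403).

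At 0.5 and 1 h limma called no member (share of all genes called 0.115% and 1.22%), and 1 member had an unadjusted p under 0.05 at each time. It was Il1b, whose response in FosKO differed by -0.48 at 0.5 h (SE 0.11, adjusted p 0.208) and by -0.30 at 1 h (adjusted p 0.388). The value at 0.5 h was called under quantile normalisation (-0.55, adjusted p 0.0401) and without replicate 1 of LysM-Cre at 0.5 h (-0.60, adjusted p 0.0049). It was also called with a replicate block (adjusted p 0.0185) and with one specific to each genotype (adjusted p 0.005), and the latter called the 1 h value too (adjusted p 0.0419). The responses of Il18 and Il18bp at 2 h differed by -0.020 and 0.11, with 95% intervals from -0.28 to 0.24 and from -0.32 to 0.54. For those genes the higher level in FosKO was thus present before LPS and no difference in response was detected.

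Ligand and inhibitor transcripts were also set against each other within each library, as the difference of their log2 values, which has no fixed zero because the genes differ in length. Only its change over time or between genotypes can be read, and no test was run on it. Il1b minus Il1rn rose from 0 h by 2.59, 4.47 and 4.30 in LysM-Cre and by 1.97, 4.02 and 4.11 in FosKO. At 0 h the genotypes overlapped. After 0.5 h it was 0.31 to 0.87 in LysM-Cre and -0.28 to -0.0029 in FosKO, after 1 h 2.42 to 2.58 and 1.86 to 1.97, and after 2 h 2.28 to 2.40 and 1.98 to 2.03. Every FosKO library with LPS thus had less Il1b relative to Il1rn than every control library of its time.

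Il1a minus Il1rn rose by 1.79, 4.19 and 3.96 in LysM-Cre and by 1.78, 4.05 and 4.12 in FosKO. The groups overlapped at 0 and 0.5 h, FosKO lay lower at 1 h (-0.0775 to -0.0027 against 0.20 to 0.26), and at 2 h FosKO lay higher by a small margin (0.0221 to 0.0553 against -0.0081 to 0.0185). Il18 minus Il18bp lay lower in FosKO at every time without overlap, between -1.22 and -0.78 at 0 h against -0.46 and -0.15 in LysM-Cre. It changed by at most 0.24 with LPS in either genotype.

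**Figure D4:**
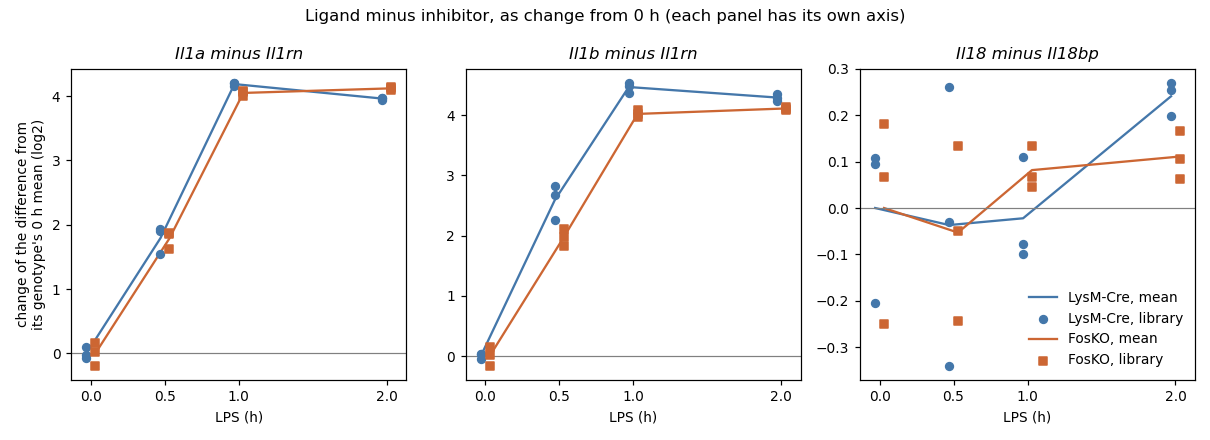
Difference in log2 level between each ligand gene and its inhibitor gene within each library, as change from the genotype's mean at 0 h, against hours of LPS. Lines join the group means, and panels have their own axes. The change of Il1b minus Il1rn was smaller in FosKO at each LPS time, for example 1.97 against 2.59 at 0.5 h.

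The order of the 8 group means shows how the patterns differ. For Il1a the groups rose in the order LysM-Cre and FosKO at 0 h, then at 0.5 h, each pair of neighbours without overlap. Above them came LysM-Cre at 1 h and at 2 h, which overlapped, then FosKO at 1 h and FosKO at 2 h. For Il1b the FosKO and LysM-Cre groups at 0.5 h overlapped, as did FosKO at 1 h with LysM-Cre at 1 h and LysM-Cre at 1 h with LysM-Cre at 2 h, and FosKO at 2 h stood alone at the top. For Il18bp all 4 control groups came before all 4 FosKO groups. For Il1rap both groups at 2 h came last, and each of the other groups overlapped its neighbour among them.

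Genes with the most similar pattern over the 8 group means were found by Pearson's r, for members whose means spanned at least 1. The points share libraries, so r is a description. It takes no account of the size of a change, and no minimum span was asked of the matched genes. The means of Srsf5 thus ran only from 12.30 to 12.69, whereas those of Il1a spanned 5.39. A high r also does not mean the same difference between genotypes. For Il1a they were Clcf1, a cytokine of the interleukin 6 family (r 0.994), Rnf19b (0.992) and the splicing factor gene Srsf5 (0.992). For Il1b they were Clcf1 (0.995), Zc3h12a, which encodes an RNase acting on cytokine transcripts (0.995), and Srsf5 (0.992). At 2 h, where Il1b was higher in FosKO, the mean of Zc3h12a was 11.81 in FosKO and 11.95 in LysM-Cre. The mean of Clcf1 was 8.53 and 8.23, and that of Srsf5 12.683 and 12.675. For Il18 they were Cmtr1 (0.998), the interferon-induced GTPase gene Ifi47 (0.997) and the antigen peptide transporter gene Tap2 (0.996). For Il18bp they were the non-classical MHC gene H2-T23 (0.999), the co-stimulatory gene Cd86 (0.998) and Olfr56 (0.998). For Il1rn they were the protease gene Ctsc (0.995), Ranbp2 (0.992) and the GM-CSF receptor gene Csf2ra (0.991).

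A list of 42 further genes of the pathway was read beside the members. Of these, 35 were in the table and 32 were tested. Between genotypes, 15 were higher and 5 lower in FosKO before LPS, 13 and 4 after 0.5 h, 11 and 5 after 1 h, and 12 and 7 after 2 h, with a median difference between 0.046 and 0.088. Over all genes tested the share called was 35.4%, 40.9%, 33.9% and 44.6%, as given above for the members. Il33, which lay under the level needed for a test in every library at 0 h, is left out of the counts with LPS. Of the other 31, 17 rose and 9 fell at 2 h in LysM-Cre, and 17 rose and 8 fell in FosKO, where 60.8% and 62.1% of all genes were called. The difference in response called 3 higher and 3 lower at 2 h, against 15.0% of all genes. Among the lower calls, that of Casp4 (-0.45, limma adjusted p 0.0327) was lost with no filter and without some single libraries (-0.46 to -0.34).

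The only other ligand gene tested was Il33, an alarmin that signals through the chain encoded by Il1rl1 together with Il1rap. At 0, 0.5 and 1 h it lay between 1.86 and 2.43 in all libraries. At 2 h it was 3.19, 3.49 and 3.40 in LysM-Cre and 4.37, 4.23 and 4.60 in FosKO, without overlap. The difference was 1.04 (SE 0.12, limma adjusted p 6.62e-07). Il33 reached the level needed for a test only through the 2 h libraries and was under it in every library at 0 h, so its change with LPS had to be a rise, and no test of that change or of the response is given.

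Of 5 other receptor genes tested, 1 was higher and 2 lower in FosKO at 0 h, where 19.5% of all genes were called higher and 15.9% lower. At 2 h none was higher and 3 lower, where 20.3% of all genes were called lower. Il1r1, which encodes the signalling receptor for both interleukin 1 ligands, was 4.34, 4.29 and 4.39 in LysM-Cre at 2 h and 3.13, 3.14 and 3.24 in FosKO, a difference of -1.17 (SE 0.20, limma adjusted p 7.39e-05). It rose by 1.11 in LysM-Cre and differed by 0.019 from 0 h in FosKO (adjusted p 0.946), and the difference in response was -1.09 (adjusted p 0.0122). Il1rl1 differed by -1.24, -1.29, -1.09 and -0.83, and Il18rap, an interleukin 18 receptor chain, by -0.92, -0.90, -0.96 and -0.30, all called. The last of these calls was lost under quantile normalisation (-0.27, adjusted p 0.0565) and without FosKO replicate 2 or 3 or LysM-Cre replicate 1 or 3 (-0.31 to -0.20). Il1rl2, a receptor gene for interleukin 36 that was singled out after its values were seen, was higher in FosKO by 0.34 at 0 h (limma adjusted p 0.0256) and 0.295 at 0.5 h (adjusted p 0.0483), and differed by 0.14 and -0.0955 at 1 and 2 h with no call. The 0 h call was lost without FosKO replicate 1 or 2 or LysM-Cre replicate 1 or 2 (0.30 to 0.34), and the 0.5 h call under 5 other settings and without any of 5 single libraries (0.20 to 0.32).

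Among the genes of processing and signalling, Casp4, the intracellular LPS sensor, was higher in FosKO by 0.94, 0.98, 0.60 and 0.49, and Casp1, which cuts interleukin 1 beta and interleukin 18, by 0.47, 0.58, 0.37 and 0.40. The adaptor gene Myd88 was higher by 0.31, 0.43, 0.27 and 0.37, Irak2 by 0.47, 0.57, 0.28 and 0.45, and Peli1, a ubiquitin ligase gene of the pathway, by 0.47, 0.52, 0.59 and 0.55, all called. Under quantile normalisation the 2 h values of Casp1, Irak2 and Myd88 were 0.24, 0.29 and 0.23, still called. The sensor genes Nlrc4 and Aim2, named after their values were seen, were higher in FosKO at every time. Nlrc4 differed by 0.82, 0.73, 0.75 and 0.68 and Aim2 by 0.49, 0.61, 0.40 and 0.67, all called. Other genes were lower in FosKO, of which 3 are likewise named after their values were seen. The inflammasome sensor gene Nlrp1b was lower at every time, by -0.83, -0.995, -0.70 and -0.39, called under all alternatives run. Mefv, which encodes the sensor pyrin, differed by -0.44, -0.27, -0.69 and -0.54, called at 0, 1 and 2 h, though the 0 h call was lost under 5 of the other settings and without any of 5 single libraries (-0.46 to -0.25), the 1 h call in the high 18S libraries alone, where the control arm is 1 library (-0.65, adjusted p 0.104), and the 2 h call without FosKO replicate 2 (-0.47). The kinase gene Irak1 differed by -0.086, -0.086, -0.13 and -0.12, all called. The 0 and 0.5 h calls were lost under some alternatives, at differences between -0.086 and -0.068. The 1 h call was lost in the high 18S libraries alone (-0.12), where the control arm is 1 library. The inhibitory kinase gene Irak3 differed by at most 0.065, with no call. Nlrp3, which encodes an inflammasome sensor, rose by 2.59 in LysM-Cre and 2.72 in FosKO at 2 h and differed between genotypes at 2 h, by 0.24 (limma adjusted p 0.00507), a call lost under quantile normalisation (0.011, adjusted p 0.890).

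**Figure D5:**
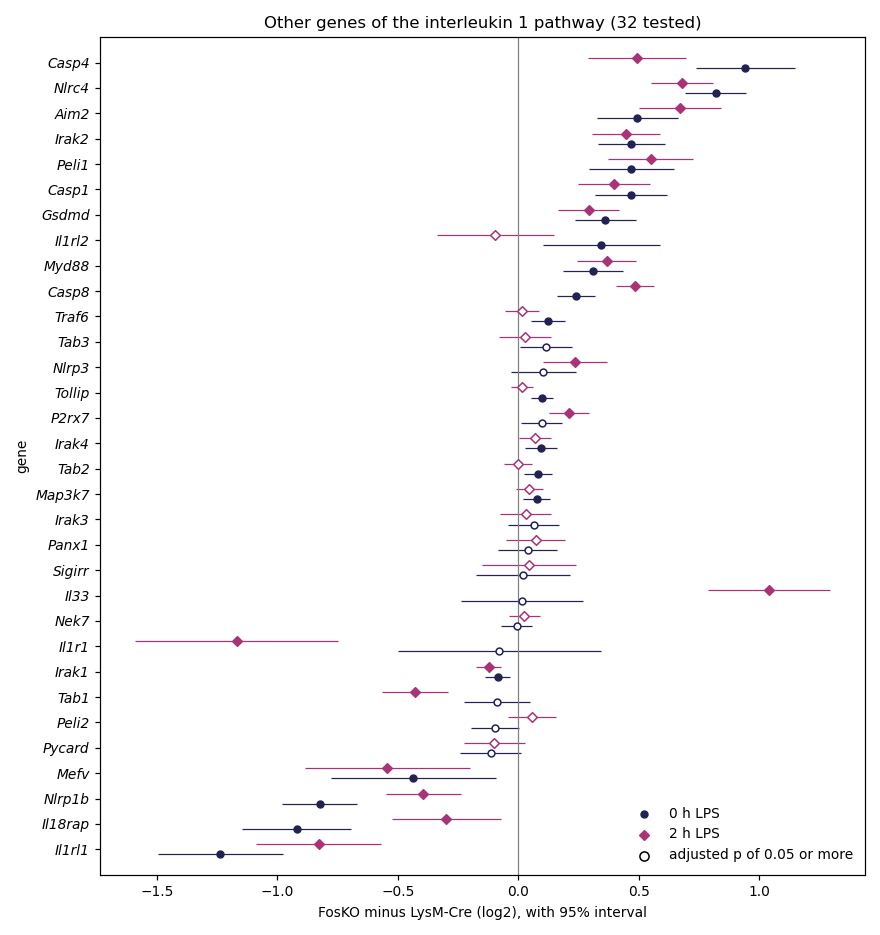
FosKO minus LysM-Cre difference in log2 level of the 32 tested pathway genes at 0 h (circles) and 2 h (diamonds) of LPS, with 95% intervals from limma, ordered by the difference at 0 h. Open symbols did not pass the adjusted p of 0.05. At 2 h Il33 and Il1r1 differed by 1.04 and -1.17. Il33 was under the level needed for a test in every library at 0 h.

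Markers of other cells were compared because neutrophils and dendritic cells also express members. The summed linear level of 7 neutrophil markers was 79.6 to 172 in LysM-Cre and 54.7 to 88.5 in FosKO and was lower in FosKO at each time without overlap. Over all libraries S100a8 lay between 4.09 and 5.41, S100a9 between 3.85 and 5.82, Ltf between 3.05 and 4.75 and Ngp between 3.46 and 5.49. Camp lay between 1.56 and 2.11, and Ly6g and Elane between -2.218 and -2.195, at the floor of the table. The sum of 4 dendritic cell markers was 30.04 to 32.62 in LysM-Cre and 29.01 to 37.25 in FosKO at 0 h, and the genotypes overlapped at 0, 0.5 and 1 h. At 2 h the sum was 111 to 122 in LysM-Cre and 85.1 to 87.8 in FosKO, in both above 0 h without overlap. It was carried by Zbtb46 (3.40 to 6.03 over all libraries) and Xcr1 (3.65 to 5.76), with Flt3 and Siglech at most 1.82. The T cell markers Cd3d, Cd3e and Cd3g lay under 0 in every library. The summed levels of B cell, NK cell and stromal markers were 5.81 to 7.41, 3.35 to 5.50 and 10.2 to 20.6 over both genotypes. Of the macrophage markers, Mertk was higher in FosKO by 0.97, 1.001, 0.89 and 1.65 at 0, 0.5, 1 and 2 h and Fcgr1 by 0.65, 0.85, 0.63 and 0.73 (limma adjusted p at most 7.75e-06), while the other 5 differed by -0.25 to 0.22. The part of these cells and markers in the differences above was not tested.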

How the data were processed

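Total RNA from BMDMs was sequenced by the authors, and per the labels and the submitters' processing notes reads were aligned to GRCm38 with STAR 2.5.2a, counted with RSEM 1.2.31 and normalised with DESeq2 1.16.1. The deposited values are log2 values for 24273 genes in 24 libraries and resemble a regularised log, which would shrink differences of low genes. The study names RefSeq genes, whereas the table carries Ensembl identifiers, of which 99.6% were found in GENCODE. Reads per library cannot be had from such values, so no counting interval was computed.

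One limma fit (limma 3.58.1, R 4.3.3) of 8 group means, with a trended empirical Bayes variance and 16 residual degrees of freedom, covered the 13901 genes with a linear value of at least 5 in at least 3 libraries. It gave 13 comparisons, with Benjamini-Hochberg adjustment over all tested genes. Standard errors come from this fit. The smallest two-sided p that an exact permutation test can reach with groups of 3 is 0.1, so no such test was run. The fit was tested on simulated data first.

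The members, the pathway and marker lists, the motifs and the alternatives were chosen with earlier results of these data known. The genes named are all members, the 3 called pathway genes with the largest differences per kind of comparison at the time with most calls (for LPS, in LysM-Cre), 6 pathway genes named in any case (Il1r1, Myd88, Irak2, Irak3, Nlrp3 and Casp1), the 3 genes most like each member, and the check and marker genes. Il1rl2, Nlrp1b, Mefv, Irak1, Nlrc4 and Aim2 were added after their values were seen. Promoter windows were read from RefSeq (GRCm38.p6), where all 7 members had at least 1. Alternatives were another filter or none, a pseudocount of 1, quantile normalisation, no variance trend, a term for or removal of the low 18S libraries, a fit of the compared groups only, a replicate block, and leaving out each library. Libraries with the same number were compared by the correlation of their deviations from the group means. Among the groups compared with each other, all 3 pairs exceeded 0.1 only for FosKO at 0 and 0.5 h (0.19, 0.13 and 0.27). They also did so for FosKO at 0.5 and 1 h (0.71, 0.38 and 0.33), which were not compared with each other. Such pairing comes from the data and not from the labels. Among the libraries of 0.5 and 1 h, the sign of these correlations went with the 18S sets. It was positive for same-numbered libraries in the same set, such as FosKO replicate 1, low at both times (0.71). It was negative for those in different sets, such as LysM-Cre replicate 2, high at 0.5 h and low at 1 h (-0.25). The part of 18S in the correlations was not tested.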

Additional observations from a re-analysis of the deposited data

Results flagged for a closer look

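The change of Il1a from 0 h to 2 h of LPS differed between the genotypes by a test of that difference itself. It was larger by 0.55 in the libraries labelled FosKO (SE 0.093, limma adjusted p 0.000302), from 4.61 in LysM-Cre to 5.16 in FosKO, and all 3 FosKO libraries at 2 h lay above all 3 control libraries. Over the 22 alternatives run for this value it lay between 0.36 and 0.60, with an adjusted p between 1.6e-05 and 0.00586. The change of Il1r1 from 0 h to 2 h differed between the genotypes by the same kind of test, by -1.09 (limma adjusted p 0.0122). It lay between -1.24 and -0.98 over its 21 alternatives, with an adjusted p between 0.0039 and 0.0378. Il1r1 is a low gene, with a highest group mean of 4.34 (LysM-Cre at 2 h). It did not pass the stricter filter (linear 20 in 3 libraries), so that setting is not among the 21. Il1r1 was picked by name for this section, and other pathway genes were also called. The response of Il18rap, for example, differed by 0.62 (limma adjusted p 0.00843). It was called under all of its 22 alternatives (adjusted p at most 0.029).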

How the results depend on the processing

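Each member's difference was refitted under 9 or 10 settings and without each library. Every call of Il18bp, Il18, Il1rn, Il1a and Il1b outside the cases named with the results was kept under all settings run. No call changed direction. Sign changes occurred only among 14 differences that were not called, with the cause not tested. In the high 18S libraries alone Il18 at 1 h of LPS in LysM-Cre became -0.069, its difference in response at 1 h 0.12, and Il1b between genotypes at 1 h 0.039. With an 18S term Il18bp at 0.5 h of LPS in LysM-Cre became 0.0052 and the Il1a difference in response at 1 h -0.0068. Under quantile normalisation the latter became -0.086 and the Il18bp difference in response at 2 h -0.011.

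Without single libraries the ranges were, for Il18, -0.054 to 0.053 (1 h LPS, FosKO), -0.024 to 0.064 (1 h, LysM-Cre), -0.074 to 0.040 (response, 1 h) and -0.089 to 0.051 (response, 2 h). For Il18bp they were -0.008 to 0.35 (0.5 h, FosKO), -0.15 to 0.042 (0.5 h, LysM-Cre), -0.23 to 0.096 (1 h, FosKO), -0.0012 to 0.11 (1 h, LysM-Cre), -0.27 to 0.054 (response, 1 h) and -0.050 to 0.27 (response, 2 h). For Il1a they were -0.033 to 0.058 (response, 1 h), for Il1b -0.15 to -0.054 (genotype, 1 h), and for Il1rap -0.050 to 0.024 (genotype, 0 h) and -0.044 to 0.022 (0.5 h, LysM-Cre).

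No steady pairing by replicate number was seen between genotypes or, in LysM-Cre, over time. Same-numbered libraries of the genotypes correlated at -0.53 to 0.31 (median -0.02), and those of one genotype over times at -0.25 to 0.41 in LysM-Cre and -0.0008 to 0.71 in FosKO. The ends of these ranges, apart from -0.0008, came from libraries of 0.5 and 1 h, where the sign went with the 18S sets. These values therefore cannot decide the pairing at those times. With a replicate block, the members called for difference in response went from 0 to 1 at 0.5 h (also under quantile normalisation, and 0 to 1 without single libraries) and from 1 to 2 at 2 h (also with an 18S term, a stricter filter or the compared groups only, and 1 to 3 without single libraries). A block specific to each genotype gave 1, 1 and 2 at 0.5, 1 and 2 h. The shared block also called Il1b between genotypes at 0 h (adjusted p 0.0116). The effect of either block on other named calls is given with the results.

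Of the 32 pathway genes tested, the number called between genotypes at 0 h went from 20 to 13 when only the groups compared were fitted. At 0.5 h of LPS it went from 4 to 1 in FosKO under that setting (1 to 8 without single libraries), and from 3 in LysM-Cre to 6 under that setting, 5 with a genotype-specific replicate block and 1 in the high 18S libraries (1 to 2 without single libraries). At 1 h in LysM-Cre it went from 19 to 12 in the high 18S libraries, which hold 1 library of that group, and the difference in response at 1 h gave 0 to 1 without single libraries. Of the recomputed group levels of members, counted once for each level and alternative, 14 moved by over 1 SD and 410 did not. Reads per library are unknown, so no limit of detection can be given for Il1r2.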
